A study of Homo sapiens with 6 samples.

Results

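The ATP-binding cassette (ABC) transporter genes were taken from the gene table by their symbols, as every gene named ABCA to ABCG followed by a number, which gave 37 of 18539 listed genes. The levels come from RNA sequencing of A375, an established human malignant melanoma cell line, in 6 libraries. The shMMP9 cells (3 libraries) had been infected with a pLKO.1 lentivirus encoding a short hairpin RNA against the coding region of MMP9, the gene of the secreted gelatinase matrix metalloproteinase 9. The shControl cells (3 libraries) carried a control hairpin. Both groups were A375 grown in Dulbecco's medium with serum, and the protocols describe lentiviral infection and puromycin selection of the lines. One hairpin sequence is given, so that its target and any other effect of that hairpin cannot be told apart. No label says that the replicates of a group came from separate cultures, and the p-values therefore rest on the spread among these 6 libraries, some of which may be technical. MMP9, the targeted gene, stood at 16.2, 14.6 and 17.1 scaled counts in shMMP9 libraries 1 to 3, against 26.1, 24.3 and 28.7 in shControl libraries 1 to 3, a level 0.605 times that of shControl.

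ABC proteins share a nucleotide-binding domain that hydrolyses ATP, and most use it to carry a substrate across a membrane. The ABCA and ABCG groups handle mainly sterols and phospholipids, ABCB holds P-glycoprotein together with mitochondrial, lysosomal and bile transporters, and ABCC holds the multidrug resistance proteins (MRP), which export organic anions and glutathione conjugates. ABCD proteins serve the peroxisome and the lysosome, while ABCE and ABCF proteins have no membrane-spanning part and act in translation. In melanoma the family is best known for drug efflux.

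A level is given as a scaled count, the gene count brought to a common upper quartile by the authors, and a difference is shMMP9 minus shControl on the log2(scaled count + 1) scale, which understates the change of weak genes. The libraries held 21854123 to 25895698 estimated reads in shMMP9 and 24319969 to 28005552 in shControl. Mitochondrially encoded genes took 0.617 to 0.708% of the reads in shMMP9 and 1.637 to 1.789% in shControl. Of the melanoma markers, SOX10 averaged 785 in shMMP9 and 378 in shControl. The pigment cell gene PMEL stood at only 1.76 in shMMP9 and 1.7 in shControl, and MLANA at 0.392 in shMMP9 and 0.102 in shControl, while TYR and DCT were not analysed here. In all, 5 of 8 tested melanoma markers rose and 2 fell, against 25% and 32.5% of all genes tested. Marker lists of other cell types held changed genes too, with 2 of 3 tested keratinocyte genes higher. Of 6 fibroblast genes, 5 were lower and 1 higher, 2 of 6 endothelial genes went each way and 1 of 2 leukocyte genes was higher. These lists are short, and their counts are to be read against the same shares over all genes. Their summed scaled counts were 128 to 136 in shMMP9 and 70.7 to 81.7 in shControl for 4 keratinocyte genes. They were 27.7 to 30.5 in shMMP9 and 51.8 to 56.3 in shControl for 8 fibroblast genes, and 22.1 to 25.7 in shMMP9 and 55.9 to 64.8 in shControl for 6 endothelial genes. Single genes carried such sums. The keratinocyte gene KRT10 averaged 112 in shMMP9 and 71.6 in shControl, and the endothelial gene TIE1 4.56 and 49.9. KDR, also endothelial, went the other way, at 16.1 in shMMP9 and 6.44 in shControl. The 2 listed leukocyte genes summed to 7.24 to 7.69 in shMMP9 and 2.46 to 2.91 in shControl, and PTPRC and CD3E were not analysed here. All 6 libraries are labelled as the A375 line and no other cell type is named, so the lists are no measure of cell composition. The part of these shifts in the ABC results was not tested. In bulk samples, fewer cells expressing a gene and less RNA per cell cannot be told apart.

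ABC genes were lower more often than higher in shMMP9 cells. Of the 37 genes, 35 passed the filter on low values, and ABCC11 and ABCD2 did not. By limma with Benjamini-Hochberg adjustment over all 17194 genes tested, 18 of the 35 fell (51.4%) and 9 rose (25.7%), while 8 were not called. The 18 include ABCC9 and the 9 include ABCA6, each of which passed that filter only through the group where it is higher. Only 5 rose without shMMP9 library 1. Among all genes tested, 32.5% fell, 25% rose and 57.5% were called in either direction, so that the share of ABC genes that rose was near the background and the share that fell was above it. No test was made of that excess. The libraries of the 2 groups did not overlap for 27 of the 35 ABC genes (77.1%), against 62.7% of all genes tested. The median difference was -0.22 for ABC genes and -0.047 for all genes. Every tested ABCF gene rose and no ABCC or ABCG gene did, except ABCC4 under other scalings, whereas ABCA and ABCB genes went both ways.

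**Figure D1:**
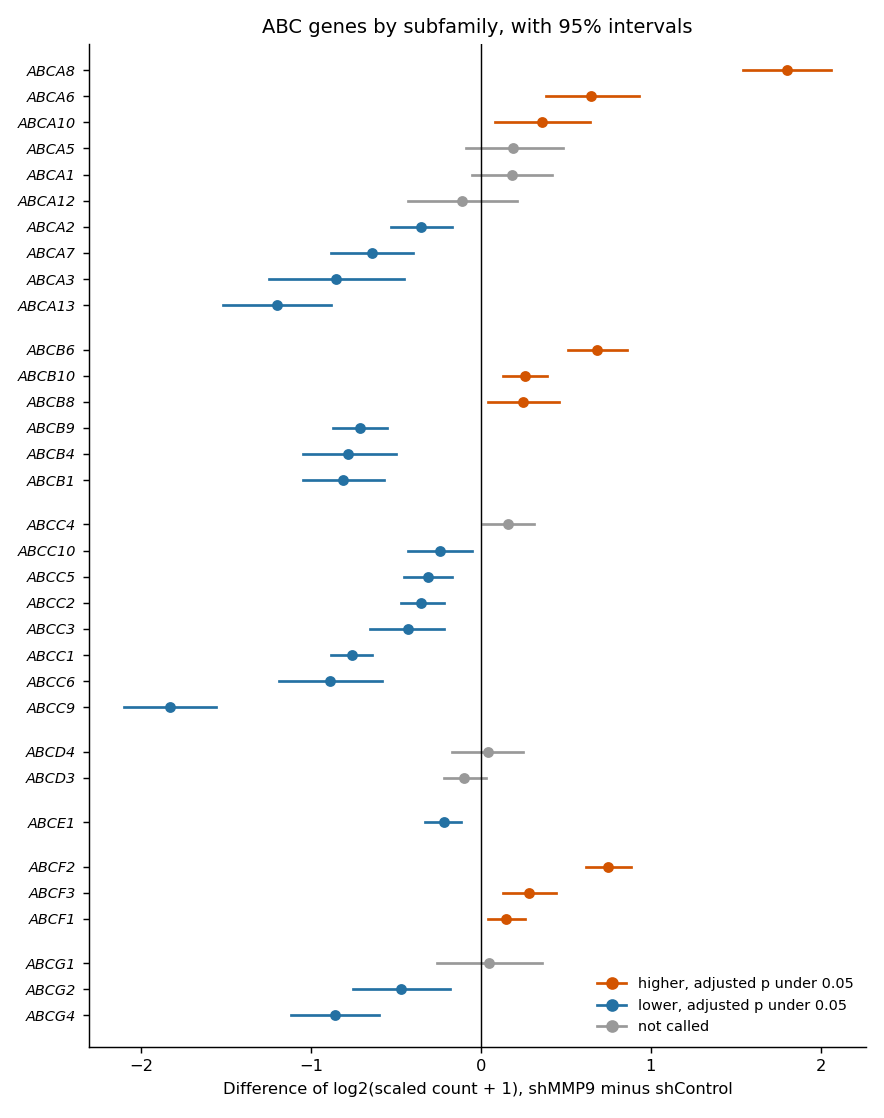
Difference in log2(scaled count + 1), shMMP9 minus shControl, with its 95% interval for the tested ABC genes reported here, grouped by subfamily. ABCA8 (1.80) and ABCC9 (-1.83) lie farthest from 0, and the intervals of the 3 ABCF genes lie above 0.

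ABCC genes were the most uniformly lower. Of 9 listed, 8 were tested, 7 fell (6 under both other scalings, without ABCC10) and ABCC4 was not called, with a median difference of -0.39. The 7 and the median include ABCC9, which passed the filter on low values only through its shControl libraries. Its place in the count is therefore a description. Of all genes tested, 32.5% fell and 25% rose, with a median difference of -0.047. Summed over the subfamily, the scaled count per kilobase of exon was 30.6, 29.7 and 31 in shMMP9 libraries 1 to 3, against 39.9, 41.1 and 40.8 in shControl libraries 1 to 3. The library sums of the 2 groups do not overlap, and ABCC1 made up the largest share of the sum in both. ABCC1 also carried most of the fall in the sum, at 9.3 per kilobase in shMMP9 and 15.8 in shControl.

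ABCC1 encodes MRP1, which exports glutathione conjugates such as leukotriene C4 and many drugs. Located on chromosome 16 at 15949577 to 16143074 on the plus strand of GRCh38 (ENSG00000103222.18), it had 62.8, 59.7 and 61.4 scaled counts in shMMP9 libraries 1 to 3, against 96.9, 109 and 107 in shControl libraries 1 to 3. All shMMP9 libraries were therefore lower than every shControl library. The mean was 61.3 ± 1.56 in shMMP9 and 104 ± 6.53 in shControl (SD, n = 3 each), a ratio of 0.587. On the log2 scale ABCC1 fell by 0.76 (SE 0.0557, limma adjusted p = 8.97e-08). Per kilobase it stood at 9.3 in shMMP9, below ABCF3, ABCB6, ABCB10 and ABCD3, whereas in shControl it stood at 15.8, above all 4 of them.

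ABCC2 and ABCC3 encode MRP2 and MRP3, exporters of conjugated bilirubin and other glucuronides on the bile-facing and blood-facing sides of the liver cell. ABCC2 had 36.3, 33.8 and 35.2 scaled counts in shMMP9 libraries, against 45.4, 44.1 and 45 in shControl libraries. It fell by 0.35 (SE 0.0565, adjusted p = 0.000161), with little spread in either group. For ABCC3 the scaled counts were 18.9, 15.7 and 22 in shMMP9 libraries, against 25.2, 26.1 and 25.5 in shControl libraries. The shMMP9 libraries were the more scattered but none reached a shControl value, and ABCC3 fell by 0.43 (SE 0.0995, adjusted p = 0.00227).

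ABCC4 and ABCC5 encode MRP4 and MRP5, which can export cyclic nucleotides. ABCC5 had 28.8, 28.4 and 31.2 scaled counts in shMMP9 libraries, against 38.5, 35.1 and 36.7 in shControl libraries, and fell by 0.31 (SE 0.0647, adjusted p = 0.00109). ABCC4 was the exception of the subfamily, with 40.6, 45.1 and 41.6 scaled counts in shMMP9 libraries, against 40.9, 35 and 37.6 in shControl libraries. Its groups overlapped through shControl library 1, and its difference was 0.16 (95% interval 0.01 to 0.31 before adjustment, adjusted p = 0.0596). ABCC4 was called higher when that library was left out (0.22, adjusted p = 0.00777) and under median-of-ratios scaling (adjusted p = 0.0171), total-read scaling (adjusted p = 0.0175) and limma-voom (adjusted p = 0.0173). It is the only ABC gene here on chromosome 13, where 197 genes with a mean scaled count of 5 or more had a median difference of 0.28, against -0.02 for all 11489 such genes. The other chromosomes that hold ABC genes had medians of -0.11 (chromosome 19) to 0.04 (chromosome 10). The part of the chromosome 13 shift in the ABCC4 difference was not tested.

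ABCC10, or MRP7, had 15.8, 14.8 and 15.5 scaled counts in shMMP9 libraries, against 16.6, 20.4 and 18.3 in shControl libraries. The groups lay close together without overlap, and ABCC10 fell by 0.24 (SE 0.0865, adjusted p = 0.029). That call was lost on leaving out any library but shControl 1 (adjusted p 0.0533 to 0.136), and under both other scalings (adjusted p = 0.0744 and 0.0785) and limma-voom (adjusted p = 0.0734). ABCC11, whose product carries odour precursors in apocrine glands, was too weak to test, at 0.209, 0.119 and 0.281 scaled counts in shMMP9 libraries and 0.571, 0.452 and 0.157 in shControl libraries.

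**Figure D2:**
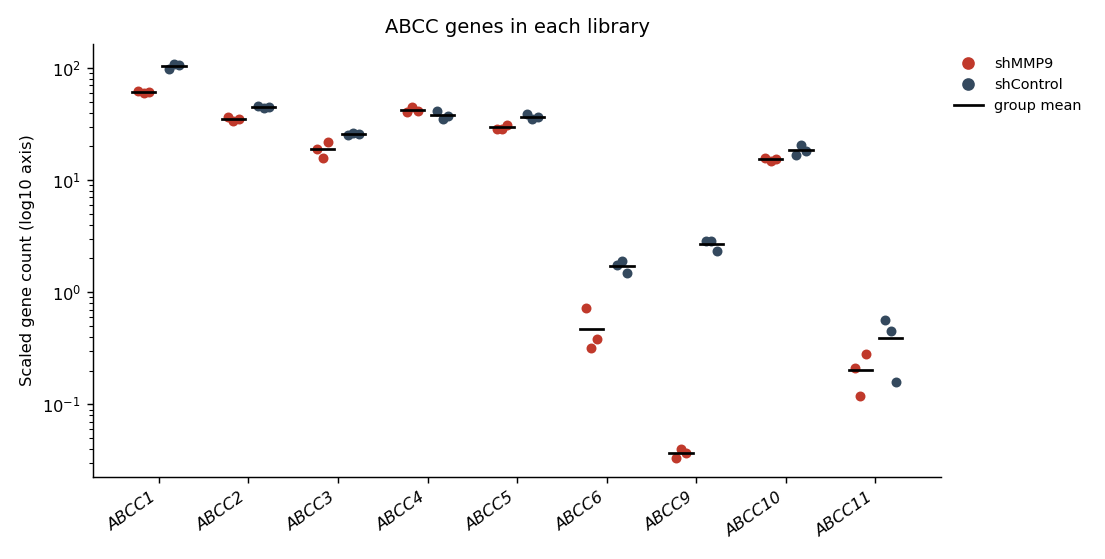
Scaled count (log axis) of each listed ABCC gene in every library, shMMP9 left of shControl, with 1 point per library and a bar at the mean. ABCC9 sits at the lowest value of each shMMP9 library, and ABCC4 is the gene whose shMMP9 mean (42.4) lies above its shControl mean (37.9).

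ABCC6, whose loss causes the calcification disorder pseudoxanthoma elasticum, lies next to ABCC1 with 5.85 kb between the 2 genes, on the opposite strand at chr16:16148928-16223522. It was weak, at 0.721, 0.317 and 0.379 scaled counts in shMMP9 libraries, against 1.75, 1.89 and 1.48 in shControl libraries. The groups were clearly apart, with a ratio of means of 0.276, and ABCC6 fell by 0.89 (SE 0.14, adjusted p = 0.000124). Of its 75-base windows, 13.2% also occur in the pseudogenes ABCC6P1 and ABCC6P2, and reads there cannot be told apart. ABCC6P1 stood at 0.359 in shMMP9 and 0.341 in shControl, and ABCC6P2 at 0.266 in shMMP9 and 0.501 in shControl, neither of them called (adjusted p = 0.94 and 0.0954). Of the 7 tested genes whose starts lie within 500 kb of the start of ABCC6, ABCC1, ABCC6 and FOPNL fell (FOPNL by 0.30), none rose, and NOMO3, between whose span and ABCC6 lie 8.97 kb, had 102 scaled counts in both groups. Among all genes tested, 32.5% fell and 25% rose, and this region was chosen for ABCC1 and ABCC6.

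ABCC9 had the lowest level relative to shControl of all ABC genes. It encodes SUR2, which transports no known substrate but regulates the ATP-sensitive potassium channel, whose pore is formed by the products of KCNJ8 or KCNJ11. Its gene lies at chr12:21797401-21942529 on the minus strand (ENSG00000069431.11). In shMMP9 libraries ABCC9 stood at 0.0336, 0.0397 and 0.0369 scaled counts, which is the lowest value of the table in each of them, against 2.89, 2.89 and 2.31 in shControl libraries. The shControl values correspond to 81, 89 and 62 reads. On the log2 scale ABCC9 fell by 1.83 (SE 0.126, adjusted p = 4.59e-08), but this figure depends on the pseudocount and is no bound. ABCC9 passed the filter on low values only through its shControl libraries, so its adjusted p is a description and no separate support. With pseudocounts of 4 and 0.25 the difference was -0.73 and -3.36, and with limma-voom it was -5.57.

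The files do not settle whether that lowest value is 1 read or none. Taken as 1 read per library, ABCC9 had 3 reads over the shMMP9 group and 232 over the shControl group, a ratio of 0.014 at equal depth (exact 95% counting interval 0.0029 to 0.042). Taken as 0 reads, it was at least 24.2-fold lower in shMMP9, with a floor of 3 reads per library. Both limits cover counting error only.

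KCNJ8, whose start lies 167 kb downstream of that of ABCC9 on the same strand, was also at the lowest value in every shMMP9 library, against 7.23, 8 and 8.19 scaled counts in shControl libraries (log2 difference -3.08, SE 0.12, adjusted p = 1.49e-10, no bound either). Its ratio was 0.0049 (exact 95% counting interval 0.001 to 0.014) if the lowest value is 1 read per library, and it was at least 70.5-fold lower if it is 0. Thus both subunits of this channel were at the limit of the table in shMMP9 cells. KCNJ8, like ABCC9, passed the filter on low values only through its shControl libraries. KCNJ11, the other pore gene, had 0.336, 0.198 and 0.554 scaled counts in shMMP9 libraries, against 1.1, 0.617 and 0.933 in shControl libraries, and fell by 0.47 (SE 0.147, adjusted p = 0.0147). The partner of KCNJ11 in the pancreas, ABCC8, was not analysed here. Of the 8 tested genes whose starts lie within 500 kb of that of ABCC9, 6 fell, ABCC9 and KCNJ8 included, and 1 rose, against 32.5% and 25% of all genes tested. The region was chosen for ABCC9, so part of that count was fixed beforehand. The abundant LDHB, a lactate dehydrogenase subunit, averaged 628 ± 15.5 in shMMP9 and 900 ± 4.08 in shControl, the neighbour on the other side, CMAS, was not called (0.07), and RECQL rose by 0.39.

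**Figure D3:**
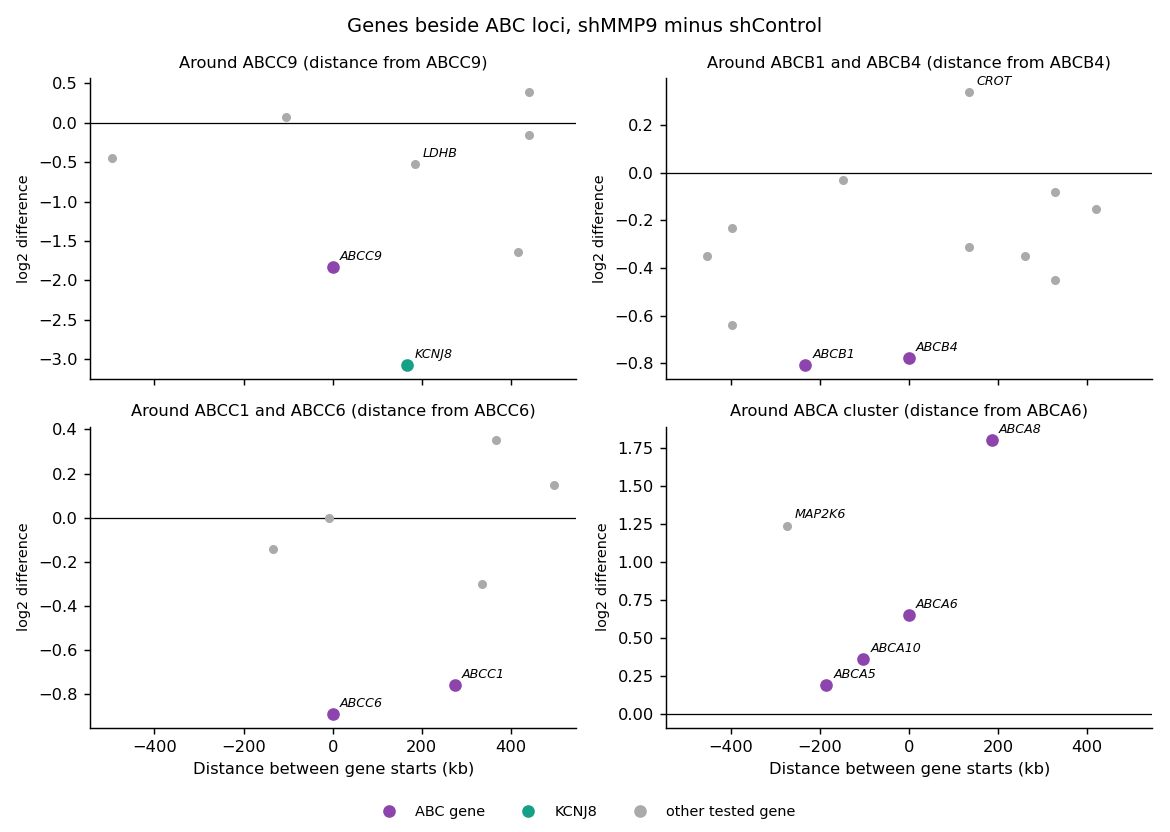
Difference in log2(scaled count + 1), shMMP9 minus shControl, of each tested gene within 500 kb of ABCC9, ABCB4, ABCC6 and ABCA6, by the distance of its start from theirs (kb, positive in the direction in which that gene is transcribed). KCNJ8 (-3.08) stands below the other genes of its region, and the region of ABCA6 holds 4 genes that rose and none that fell. The regions were chosen for their ABC genes, which are part of these counts.

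The promoters of ABCC9 and KCNJ8 are shown because these neighbours were both at the lowest value in shMMP9, and those of ABCF2 and ABCB6 because they had the largest rises among the well-expressed members. Each is the 250 bases before the first-listed start in RefSeq on GRCh38.p14, 5′ to 3′ on the gene's own minus strand. The starts of ABCC9, KCNJ8, ABCF2 and ABCB6 all lie inside the longer gene spans of GENCODE 29, which these sequences therefore overlap. The printed sequences span chr12:21941427-21941676 (ABCC9), chr12:21774707-21774956 (KCNJ8), chr7:151227206-151227455 (ABCF2) and chr2:219218959-219219208 (ABCB6). Capitals mark matches, on either strand, to GGGCGG (GC box), CACGTG (E-box), TGACNNNGC (core of the antioxidant response element), TGANTCA (AP-1), TGACGTCA (cyclic AMP response element) or TATAAA, a letter run of some core promoters.
ABCC9: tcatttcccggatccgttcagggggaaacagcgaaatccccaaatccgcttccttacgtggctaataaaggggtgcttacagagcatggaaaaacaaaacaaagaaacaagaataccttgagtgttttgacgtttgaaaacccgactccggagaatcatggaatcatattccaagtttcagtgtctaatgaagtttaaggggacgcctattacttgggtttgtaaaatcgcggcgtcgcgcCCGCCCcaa
KCNJ8: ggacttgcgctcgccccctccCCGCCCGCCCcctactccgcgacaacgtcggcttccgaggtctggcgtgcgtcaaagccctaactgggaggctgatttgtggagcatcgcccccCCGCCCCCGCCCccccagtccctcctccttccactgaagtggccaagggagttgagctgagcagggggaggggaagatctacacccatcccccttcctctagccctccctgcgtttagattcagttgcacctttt
ABCF2: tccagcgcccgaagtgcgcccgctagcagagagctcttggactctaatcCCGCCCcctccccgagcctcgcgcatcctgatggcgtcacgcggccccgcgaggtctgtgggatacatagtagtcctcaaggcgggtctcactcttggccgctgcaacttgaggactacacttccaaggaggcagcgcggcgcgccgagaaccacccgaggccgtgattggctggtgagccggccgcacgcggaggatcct
ABCB6: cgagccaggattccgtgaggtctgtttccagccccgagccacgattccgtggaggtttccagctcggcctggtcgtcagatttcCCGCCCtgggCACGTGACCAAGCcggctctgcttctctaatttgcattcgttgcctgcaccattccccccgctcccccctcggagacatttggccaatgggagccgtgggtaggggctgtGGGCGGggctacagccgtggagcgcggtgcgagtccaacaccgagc
ABCC9 and ABCF2 each hold 1 GC box, KCNJ8 holds 4 that overlap or abut in pairs, and ABCB6 holds 2 together with an E-box overlapping the antioxidant core. Sequences were matched for 30 of the 37 genes. A GC box was present in 18 of the 30 (60%), against 42.3% of all 27305 promoters of this length, and an E-box in 3 (10%, against 6.49%). The antioxidant core was present in 6 (20%, against 11%), of which 2 fell and 2 rose. TATAAA was found in 4 (13.3%, against 11.1%), TGACGTCA in ABCE1 alone (3.33%, against 1.77%) and TGANTCA in none (against 6.6%). A match here is a description of letters and not of a bound site.

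Export pumps of the plasma membrane outside ABCC were lower as well. ABCB1 encodes P-glycoprotein, the exporter of many hydrophobic drugs, and had 5.91, 6.23 and 5.47 scaled counts in shMMP9 libraries, against 12.4, 11.1 and 9.67 in shControl libraries. Its libraries were well apart, and it fell by 0.81 (SE 0.111, adjusted p = 3.5e-05), a ratio of means of 0.53. ABCB4, a phosphatidylcholine transporter of bile whose gene lies 23.2 kb from ABCB1 on chromosome 7, had 3.63, 3.01 and 3.29 in shMMP9 libraries, against 6.24, 5.59 and 7.39 in shControl libraries, and fell by 0.78 (SE 0.126, adjusted p = 0.000152). Of 12 tested genes whose starts lie within 500 kb of that of ABCB4, 7 fell, these neighbours included, and only CROT, a peroxisomal carnitine acyltransferase gene 1.9 kb from ABCB4, rose (0.34). The shares over all genes tested were 32.5% lower and 25% higher, and the region was chosen for ABCB1 and ABCB4. ABCG2 encodes the breast cancer resistance protein, an exporter of drugs, porphyrins and urate. It had 2.72, 2.66 and 1.99 scaled counts in shMMP9 libraries, against 3.53, 3.57 and 4.18 in shControl libraries, and fell by 0.47 (SE 0.132, adjusted p = 0.00825). Counted with the ABCC pumps except ABCC10, which was placed with the lysosomal genes, 8 of 9 tested genes for plasma membrane exporters fell and none rose, against 32.5% and 25% of all genes tested. This grouping was made after the table was read.

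**Figure D4:**
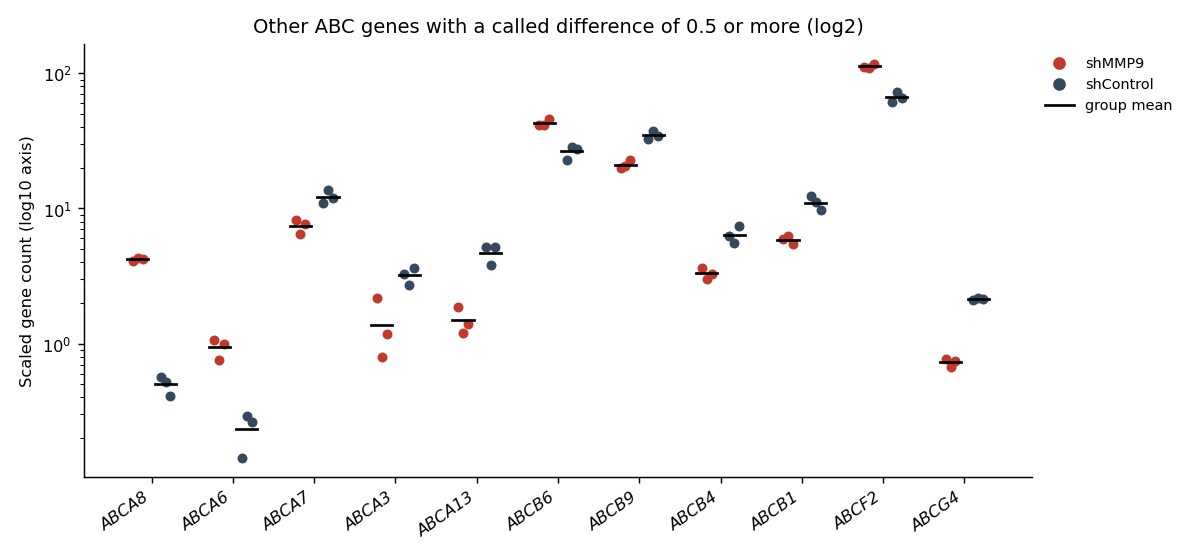
Scaled count (log axis) in every library, shMMP9 left of shControl, of the ABC genes outside ABCC that changed by 0.5 or more on the log2 scale. ABCA8 and ABCA6 are higher in all shMMP9 libraries, ABCF2 and ABCB6 likewise at a higher level, and ABCB1, ABCB4, ABCA13 and ABCG4 are lower.

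Among the ABCA and ABCG genes grouped here as movers of sterols and phospholipids, 4 of 7 fell and none rose, against 32.5% and 25% of all genes tested. This group, too, was formed after the table was read. Of the 5 ABCA genes left out of it, 3 rose and 1 fell, so the absence of rises depends on the grouping. Over the whole subfamilies, 4 of 10 tested ABCA genes fell and 3 rose, and 2 of 3 ABCG genes fell and none rose. ABCA2, an endolysosomal lipid transporter and the highest ABCA gene per kilobase, had 60.8, 57.6 and 71.7 scaled counts in shMMP9 libraries, against 73.3, 81.1 and 89.2 in shControl libraries, and fell by 0.35 (SE 0.0833, adjusted p = 0.00255). The 2 groups come close together, at 71.7 and 73.3. ABCA7, a phospholipid transporter linked to Alzheimer disease risk, had 8.16, 6.5 and 7.68 in shMMP9 libraries, against 10.9, 13.6 and 12 in shControl libraries, and fell by 0.64 (SE 0.111, adjusted p = 0.000268). ABCA3, which loads surfactant lipids into the lamellar bodies of lung cells, had 2.18, 0.793 and 1.18 in shMMP9 libraries, against 3.28, 2.7 and 3.62 in shControl libraries, and fell by 0.85 (SE 0.186, adjusted p = 0.00154). ABCG4, a sterol transporter of the brain, had 0.772, 0.674 and 0.739 in shMMP9 libraries, against 2.1, 2.18 and 2.13 in shControl libraries, which puts its libraries tightly together within each group. It fell by 0.86 (SE 0.119, adjusted p = 3.86e-05). ABCA1, which passes cholesterol to apolipoprotein A-I, was not called (0.18, 95% interval -0.05 to 0.42), nor were ABCG1, which passes sterol to high-density lipoprotein (0.05, -0.26 to 0.36), and the skin lipid transporter ABCA12 (-0.11, -0.43 to 0.21).

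A cluster of ABCA genes on the minus strand of chromosome 17, from ABCA8 at its low end (68867292) to ABCA5 at its high end (69327244), moved the other way. ABCA8 had 4.1, 4.32 and 4.25 scaled counts in shMMP9 libraries, against 0.57, 0.52 and 0.411 in shControl libraries, a ratio of means of 8.44 and the largest rise of the family (1.80, SE 0.121, adjusted p = 3.55e-08). ABCA6 had 1.07, 0.753 and 0.997 in shMMP9 libraries, against 0.143, 0.292 and 0.261 in shControl libraries, and rose by 0.65 (SE 0.129, adjusted p = 0.000697). Both are weakly expressed genes whose libraries do not overlap between the groups. ABCA6 passed the filter on low values only through its shMMP9 libraries, so its adjusted p and lack of overlap are descriptions. ABCA10 rose by 0.36 (4.36 ± 0.338 in shMMP9 and 3.2 ± 0.519 in shControl, SD, n = 3 each, adjusted p = 0.0305), a call lost without shMMP9 library 1 (adjusted p = 0.107), shMMP9 library 3 (0.056) or shControl library 1 (0.116). ABCA5 was not called (0.19, 95% interval -0.09 to 0.48), and ABCA9 was not analysed here. Across 500 kb on either side of the start of ABCA6, 4 of 5 tested genes rose, against 25% of all genes tested. ABCA6, ABCA8 and ABCA10, for which the region was chosen, are in that count. The other gene that rose was MAP2K6, a kinase gene upstream of p38, at 22.6 ± 1.56 in shMMP9 and 8.97 ± 0.42 in shControl. ABCA13, the longest ABC gene here and one on chromosome 7, had 1.88, 1.19 and 1.4 scaled counts in shMMP9 libraries, against 5.17, 3.83 and 5.15 in shControl libraries, and fell by 1.20 (SE 0.147, adjusted p = 1.26e-05).

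The mitochondrial transporter genes ABCB6, ABCB10 and ABCB8 rose. ABCB6, linked to porphyrin transport and to a skin pigmentation disorder, was the ABCB gene with the highest count per kilobase in shMMP9 (14.1, against 10.6 for ABCB10), though not in shControl (8.68, against 8.78). It had 41.2, 41.7 and 45.9 scaled counts in shMMP9 libraries, against 23, 28.6 and 27.7 in shControl libraries. All shMMP9 values were above all shControl values, and ABCB6 rose by 0.68 (SE 0.0811, adjusted p = 9.17e-06). Most of its sequence, 89.1% of 75-base windows, is shared with the readthrough gene AC068946.2, which had far fewer scaled counts at 2.29 ± 0.439 in shMMP9 and 2.27 ± 1.08 in shControl. ABCB10, which promotes heme synthesis, rose by 0.26 (adjusted p = 0.00234). ABCB8, an inner membrane transporter, rose by 0.25 (adjusted p = 0.0436) with overlapping groups, and the difference was 0.13 and not called without shControl library 1 (adjusted p = 0.146). Leaving out shControl library 3 or any shMMP9 library also ended that call.

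In the lysosomal group ABCB9, a peptide transporter related to TAP, had 20.1, 20.5 and 22.7 scaled counts in shMMP9 libraries, against 32.9, 37.5 and 34.6 in shControl libraries, and fell by 0.71 (SE 0.0736, adjusted p = 2.71e-06). Of its windows, 44.8% are shared with AC026362.1, ARL6IP4 and OGFOD2 on the opposite strand, whose reads cannot be parted from its own without strand. Their differences were -0.37, -0.11 and 0.25, all smaller on the log2 scale than that of ABCB9, but their levels differ. AC026362.1 averaged 7.1 in shMMP9 and 9.48 in shControl, ARL6IP4 157 and 169, and OGFOD2 20.4 and 17. ABCB9 itself averaged 21.1 in shMMP9 and 35 in shControl. The part of such shared reads in the fall of ABCB9 was not tested. The TAP genes themselves, which pump peptides into the endoplasmic reticulum for antigen presentation, went opposite ways, with TAP1 higher by 0.29 (65 ± 2.74 in shMMP9 and 53.4 ± 6.25 in shControl) and TAP2 lower (-0.32, 61.8 ± 2.31 in shMMP9 and 77.2 ± 3.54 in shControl), while CFTR was not analysed here.

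ABCD3 and ABCD4 were not called. ABCD3, the abundant peroxisomal membrane protein that imports branched-chain and other fatty acids, had 35.2, 35 and 37.5 scaled counts in shMMP9 libraries, against 38.4, 38.6 and 38.3 in shControl libraries. The groups do not overlap, yet its difference of -0.10 did not pass the threshold (95% interval -0.22 to 0.03, adjusted p = 0.164). ABCD4, which takes part in lysosomal cobalamin release, differed by 0.04 (-0.17 to 0.25). These intervals allow changes of either sign. ABCD2, a peroxisomal fatty acid transporter, was too weak to test, at 0.201, 0.159 and 0.148 in shMMP9 libraries and 0.463, 0.162 and 0.336 in shControl libraries.

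Of the soluble ATPases of translation, the ABCF genes rose while ABCE1 fell. Per kilobase, ABCF1, ABCE1 and ABCF2 were the highest ABC genes in both groups. The summed scaled count per kilobase of the 3 ABCF genes was 86.7, 84.9 and 88.5 in shMMP9 libraries, against 62.3, 72.2 and 66.6 in shControl libraries. Most of that rise lay in ABCF2, at 31.9 per kilobase in shMMP9 and 18.9 in shControl. ABCF2, whose role in human cells is little defined, had 111, 110 and 118 scaled counts in shMMP9 libraries, against 61.8, 72.9 and 66.3 in shControl libraries, and rose by 0.75 (SE 0.0618, adjusted p = 2.78e-07). All of its shMMP9 libraries lay far above its shControl libraries. Of the windows of ABCF2, 53.1% are shared with its pseudogene and the readthrough gene AC021097.2, which stood at 5.17 ± 3.35 in shMMP9 and 2.29 ± 0.236 in shControl. ABCF1, which binds the initiation factor eIF2, had 140, 134 and 138 in shMMP9 libraries, against 117, 131 and 124 in shControl libraries, and rose by 0.15 (SE 0.0521, adjusted p = 0.0252). That small rise was not called without shMMP9 library 1 (adjusted p = 0.105), shMMP9 library 3 (0.0681) or shControl library 3 (0.0628). ABCF3, related to the yeast activator Gcn20, averaged 40.4 ± 0.389 in shMMP9 and 33.1 ± 3.43 in shControl and rose by 0.28 (adjusted p = 0.00416). ABCE1, the factor that splits ribosomes after termination, had 112, 119 and 113 in shMMP9 libraries, against 136, 131 and 135 in shControl libraries, and fell by 0.22 (SE 0.0474, adjusted p = 0.0012). Of its windows, 17.9% are shared with other genes, among them ANAPC10 and AC098588.1 on the opposite strand, and ANAPC10 stood at 8.27 in shMMP9 and 7.89 in shControl.

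**Figure D5:**
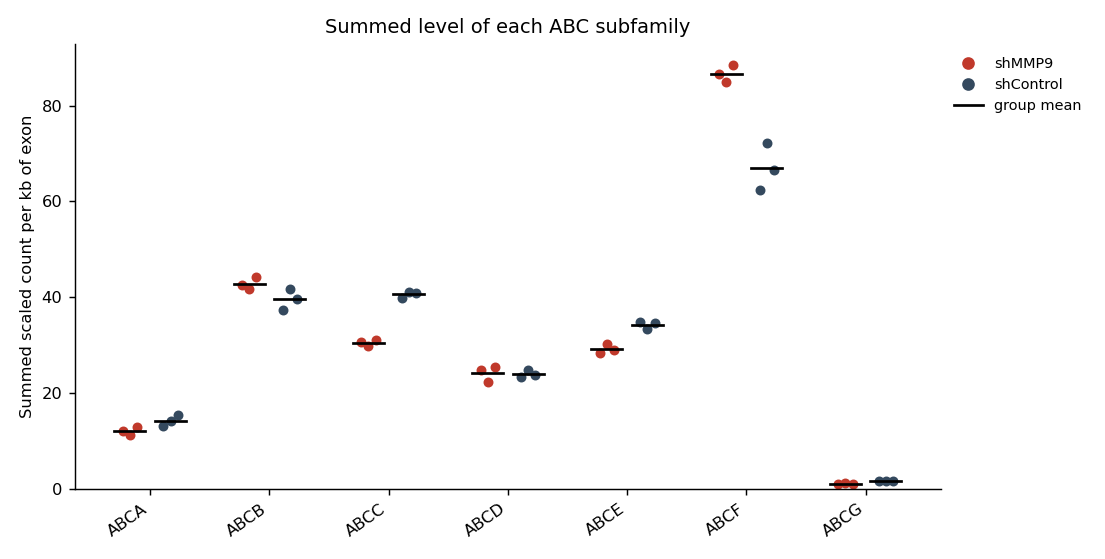
Summed scaled count per kilobase of exon of each ABC subfamily (linear axis from 0) in every library, shMMP9 left of shControl. ABCF sums are higher in shMMP9 (86.7 ± 1.8) than in shControl (67 ± 4.9), ABCC sums are lower in shMMP9 (30.4 ± 0.7) than in shControl (40.6 ± 0.63), and ABCD sums overlap.

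Over all 37 genes the opposite changes nearly cancelled, with a summed scaled count per kilobase of 226 ± 5.4 in shMMP9 and 221 ± 8.4 in shControl (SD, n = 3 each), values that overlap between the groups. This total is no measure of membrane transporters alone, since ABCF held 86.7 of it in shMMP9 and 67 in shControl, and ABCE 29.2 and 34.2. Of the membrane subfamilies, ABCA (12 and 14.2), ABCC (30.4 and 40.6) and ABCG (0.993 and 1.59) had lower means in shMMP9. Means of ABCB (42.8 and 39.5) and ABCD (24.1 and 23.9) were higher. Genes next to each other shared a direction in the pairs ABCC1 with ABCC6 and ABCB1 with ABCB4. The tested genes of the chromosome 17 cluster did so too, though ABCA5 was not called and the call of ABCA10 depended on single libraries. ABCB8 (0.25) and ABCF2 (0.75), 165 kb apart on chromosome 7, also shared a direction. ABCC5 (-0.31) and ABCF3 (0.28), 168 kb apart on chromosome 3, did not.

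Among the genes of the pathways these transporters serve, some rose and some fell, and the counts are to be read against the 25% of all tested genes that rose and the 32.5% that fell. In the glutathione list, which holds genes that supply glutathione and make the conjugates that ABCC pumps export, 4 of 16 genes rose and 5 fell. SLC7A11, the cystine carrier, rose by 2.41 and GSTK1 by 0.54, while the microsomal transferase gene MGST1 fell by 2.07 and GGT1 by 1.42. Of 11 regulators of drug transporter genes, 4 rose, among them the xenobiotic receptor AHR (1.11) and NFE2L2 (0.44), and 3 fell, among them HIF1A (-0.46). Of 12 SLC carriers of anions and drugs, 4 rose, with SLC47A1 at 0.96 and SLCO4A1 at 0.50, and 5 fell, with the nucleoside carriers SLC29A2 at -1.15 and SLC29A1 at -0.45. In sterol efflux, 5 of 13 genes rose, including RXRG (3.12), and 7 fell, including APOE (-2.38), SREBF2 (-1.21) and NPC1 (-0.69), beside the lower ABCG4 and the uncalled ABCA1.

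Lists around the intracellular transporters also held genes of both directions. Of 16 iron-sulphur and heme genes, 6 rose, with ALAD at 0.72, UROD at 0.58 and ALAS1 at 0.32, and 5 fell, with the mitochondrial iron importer SLC25A37 at -0.74. Of 15 peroxisomal genes, 4 rose, including ACSL3 (0.71) and ACAA1 (0.63), and 3 fell, including the import receptor PEX5 (-0.32). Of 7 cobalamin genes, 2 rose and 1 fell, with LMBRD1, the lysosomal partner of ABCD4, at 0.80 and the uptake receptor CD320 at -0.24. In ribosome recycling and quality control, PELO, the partner of ABCE1, rose by 0.50, and 4 of 11 genes fell, with ZNF598 at -0.52. In the phospholipid and sphingolipid list, 2 of 11 genes rose, ATP11A by 0.89, and 4 fell, ATP10A by 2.09 and PLSCR3 by 0.79.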

How the data were processed

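RNA of A375 cells was sequenced in 6 libraries, 3 per group, and groups and replicate numbers come from the labels. STAR 2.6.1d, Partek and hg38 were used, per the submitters' processing notes, with counting method, annotation and strand setting not given in the sources used here. In the deposited table are log2(scaled gene count + 1) values of 18539 genes, which the authors had scaled so that all libraries share an upper quartile, as the values themselves show. Reads were estimated by dividing each linear value by the lowest of its library. Of the 37 ABC genes, 28 came out as whole reads in all libraries within 0.05 reads, and ABCB6, ABCB8, ABCB9, ABCC6, ABCC11, ABCD4, ABCE1, ABCF1 and ABCF2 held fractions.

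The deposited log2 values were tested with limma 3.58.1 in R 4.3.3 with a variance trend, a pseudocount of 1 and Benjamini-Hochberg adjustment over 17194 genes, at a threshold of 0.05. A filter of at least 10 reads (at median depth) in 3 libraries and 15 altogether removed 1345 genes. The same steps were tested on simulated data. Values in every library are given for each ABCC gene, for other ABC genes with a called difference of 0.5 or more, and for the highest per kilobase of each subfamily, with up to 4 genes of each list. The members and lists were chosen with earlier results of these data known, and the groups by place in the cell were added after the files were read. Coordinates, exon lengths and shared 75-base windows come from GENCODE 29 (GRCh38), and promoters from RefSeq. GENCODE names 46 genes by the same pattern, of which 9 were not analysed here. Pairs of shMMP9 libraries had a chi-square per gene of 2.48 to 4.54 and pairs of shControl libraries one of 3.9 to 13.3, so no library was a duplicate. Samples with the same replicate number did not deviate together (correlations 0.04, -0.13 and -0.026). The numbers thus gave no sign of pairing, though 3 libraries per group cannot exclude it. Alternatives were other scalings, pseudocounts, filters and thresholds, limma-voom, a replicate block and each library left out. Some genes are counted in the totals but not reported here.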

Additional observations from a re-analysis of the deposited data

How the results depend on the processing

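Of the 35 tested ABC genes, 28 kept their call under every alternative fitted, and no called gene changed direction. Of those 28, the uncalled ABCA12, ABCD4 and ABCG1 changed sign under some alternatives. The other 7 included ABCA5, ABCA10, ABCB8, ABCC4, ABCC10 and ABCF1. The count of ABC genes that rose, 9 with all libraries, was 5 to 10 with 1 library left out and 5 without shMMP9 library 1. The count that fell, 18, was 16 to 17. In ABCC, 7 fell with all libraries and 5 to 6 with 1 left out. With a shControl library left out ABCC9, and with a shMMP9 library left out ABCA6, no longer passed the filter on low values, so these alternatives gave no value for them. No ABCC gene rose with all libraries, and 0 to 1 with 1 left out; it was 1, ABCC4, without shControl library 1 and with median-of-ratios scaling, total-read scaling and limma-voom. With the replicate number as a block, 9 ABC genes rose and 18 fell, 0 and 7 of them in ABCC, and among all genes 4211 rose and 5486 fell, against 4304 and 5584 without it. Median-of-ratios scaling moved the median of all genes by 0.041 and total-read scaling by 0.048. Weak genes moved most: the difference ran from -5.57 to -0.73 for ABCC9, from 0.22 to 2.05 for ABCA6, from 0.87 to 3.10 for ABCA8, from -1.82 to -0.35 for ABCC6 and from -1.47 to -0.38 for ABCG4, with the extremes at a pseudocount of 4 and with limma-voom. Taking 1 read off every value was chosen after seeing the data.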
